A study of Homo sapiens with 6 samples.

Results

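Integrins and cadherins fix mammary epithelial cells to the basement membrane and to each other. They were followed here in MB157 cells, a standard culture line from a human breast cancer of the triple-negative kind, after a single-guide RNA (sgRNA) against SOX9 or a control sgRNA. The genes followed were the integrin subunits ITGA6, ITGB4, ITGA3, ITGA2, ITGB1 and ITGB8, the antisense gene ITGB8-AS1, and the cadherins CDH1 and CDH3. Any gene whose exons overlapped theirs on the other strand was read beside them. That gave 9 chosen genes and 6 further genes on the opposite strand, 15 rows of the 57209 in each count table.

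The sample titles say that the cells carried Cas9, and the series text says that MB157 stably expressed SOX9. All cells were kept in puromycin. The SOX9 sgRNA libraries and the control sgRNA libraries were 3 each. Both groups had received their guide for 4 days, and in both the 50% of cells with the highest sgRNA expression were sorted by flow cytometry. The labels call the replicates technical, so p-values measure only the spread between these libraries. The stated purpose was to find target genes of SOX9, a transcription factor with an SRY-type HMG box.

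Integrins are heterodimers of an alpha and a beta subunit that bind the extracellular matrix outside the cell and the cytoskeleton inside it. In the mammary gland the alpha6-beta4 integrin holds basal cells to laminin in hemidesmosomes, and beta1 integrins with alpha2, alpha3 or alpha6 bind collagen and laminins. The alphaV-beta8 integrin activates latent TGF-beta. E-cadherin, the product of CDH1, joins neighbouring epithelial cells at adherens junctions, and P-cadherin, the product of CDH3, does so mainly in basal and myoepithelial cells.

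The libraries held 776125 to 1018854 counts with the SOX9 sgRNA and 777960 to 881655 with the control sgRNA. Genes with at least 1 count numbered 20207 to 21082 with the SOX9 sgRNA and 18326 to 18818 with the control. Between 80.9% and 81.5% of the counts in each library lay in genes with an exon of another gene on the opposite strand. Of 3350 protein-coding genes with a noncoding gene opposite, 2514 had at least 30 counts over both rows. In 2055 of these, or 81.7%, the opposite row held more counts per kilobase than the protein-coding row. Whether a count in an opposite row came from transcripts of that noncoding gene or of the protein-coding gene was not tested, so each count is described below by the row that holds it. Whether strand setting 1, which the file headers give, fits the strand that the kit reads was not tested either. Under the opposite setting a fragment over a shared exon would count for the other row. The levels of the adhesion genes' own rows, their order and the low counts of ITGA3, ITGA2 and ITGB1 therefore hold for this setting only. The same holds for the fold change, the call or the lack of a call of every row below, those of the lists included.

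The SOX9 row had 37, 39 and 60 counts in the SOX9 sgRNA libraries, against 38, 52 and 44 in the control sgRNA libraries. The groups overlapped, and the log2 difference was -0.22 with an SE of 0.26 (edgeR adjusted p = 0.70). An RNA count does not measure whether the gene was cut or how much protein remained.

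Most exon segments that the paired genes share hold coding sequence of the adhesion gene, and the ITGB8 segment is untranslated. The 5 shown are coding parts of segments that face the opposite rows of ITGA6, CDH3 and CDH1 called below, each coding for the adhesion gene on one strand and exon of the other gene on the opposite strand. They are written on the adhesion gene's strand, from GENCODE release 29 transcripts on GRCh38, with the translation start of ITGA6 in capitals.
ITGA6 exon 1 opposite ENSG00000226963, chr2:172427789-172427947: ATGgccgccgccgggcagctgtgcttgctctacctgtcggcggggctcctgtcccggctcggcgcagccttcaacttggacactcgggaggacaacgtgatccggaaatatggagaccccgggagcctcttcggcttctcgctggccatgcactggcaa
ITGA6 exon 2 opposite ITGA6-AS1, chr2:172465539-172465663: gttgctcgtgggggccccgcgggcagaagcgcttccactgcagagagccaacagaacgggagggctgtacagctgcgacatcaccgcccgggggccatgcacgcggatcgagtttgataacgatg
CDH3 exon 2 opposite CDH3-AS1, chr16:68645636-68645740: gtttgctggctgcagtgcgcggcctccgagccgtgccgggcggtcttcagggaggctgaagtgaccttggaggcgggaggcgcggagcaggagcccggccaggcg
CDH1 exon 10 opposite ENSG00000260798, chr16:68815576-68815659: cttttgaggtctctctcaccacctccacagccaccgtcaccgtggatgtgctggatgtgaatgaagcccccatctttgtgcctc
CDH1 exon 13 opposite ENSG00000260798, chr16:68823399-68823526: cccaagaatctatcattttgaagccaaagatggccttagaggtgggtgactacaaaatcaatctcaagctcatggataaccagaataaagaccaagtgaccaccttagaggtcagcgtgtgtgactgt
Their GC contents are, in the order shown, 65.4%, 64.8%, 73.3%, 56.0% and 43.8%.

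Every adhesion row or opposite row that passed the test was lower with the SOX9 sgRNA. ITGB8-AS1, the row opposite the integrin beta8 gene, fell most, to 0.262 of its control level. The ITGB8 row, both short antisense rows of ITGA6, CDH3-AS1 and the row opposite CDH1 also fell. Of these 6, the 2 with the most counts, ENSG00000260798 opposite CDH1 and CDH3-AS1, fell least, to 0.854 and 0.698 of their control levels.

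Of the 15 rows, 11 held enough counts to be tested. Of these, 6 were lower and 0 higher at an adjusted p below 0.05 (edgeR quasi-likelihood test, Benjamini-Hochberg over all 7959 genes tested). The background is that 9.01% of all genes tested were called, 2.99% higher and 6.02% lower. The genes were chosen with earlier results of these data known, so setting them beside this background is a description and not a test. The called rows are also not all separate loci. ENSG00000226963 and ITGA6-AS1 both lie at ITGA6, and ITGB8-AS1 lies at ITGB8. At an unadjusted p below 0.05, 8 rows were lower and 0 higher, beside 902 lower and 730 higher of all 7959 genes. DESeq2 called 4 rows lower and 0 higher, beside 343 lower and 130 higher of all 7959 genes. Of the 9 chosen genes 6 were tested and 2 called lower. Of the 7 opposite rows, counting ITGB8-AS1, 6 were tested and 5 called lower. Over all tested genes with an exon on the opposite strand, 11.3% were called, and 7.86% were called lower. The median log2 fold change was -0.56 over the 11 tested rows and 0.0092 over all tested genes. In 8 of the 11 rows every SOX9 sgRNA library was below every control library, whereas over all tested genes the groups did not overlap for 24.5%, or 12.8% in this direction.

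**Figure D1:**
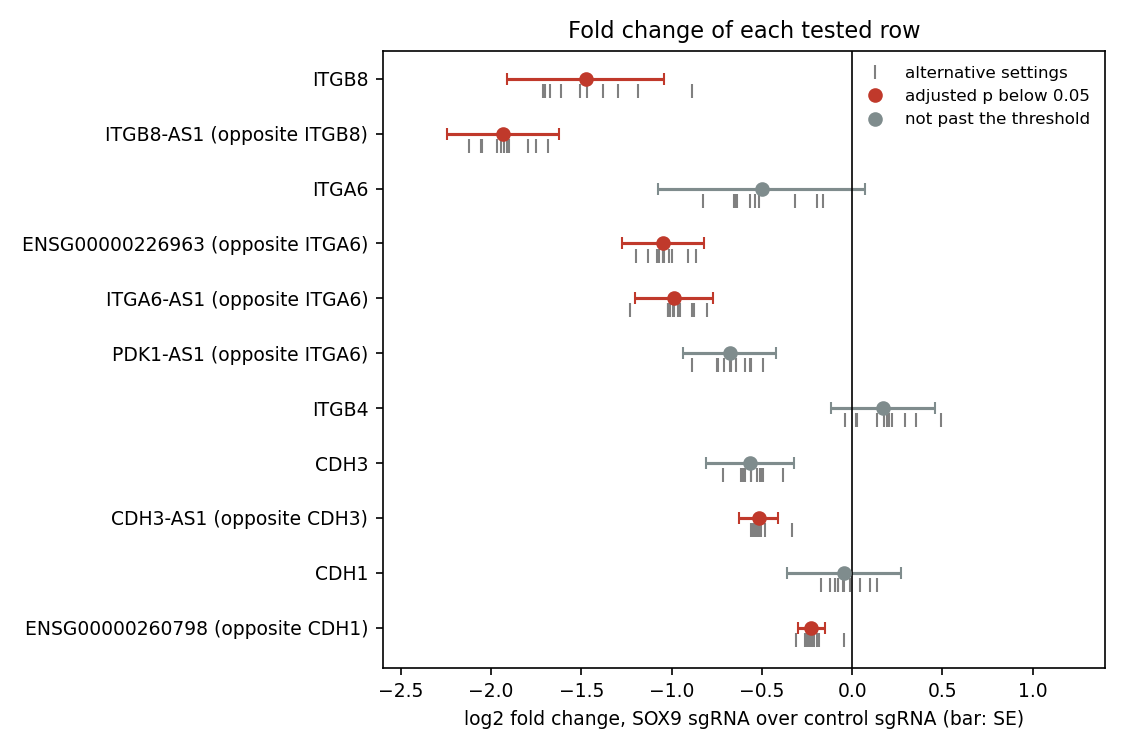
Log2 fold change (SOX9 sgRNA over control sgRNA, x axis) of each tested adhesion gene row and each tested row opposite it, with bars of 1 SE, rows past the threshold in red and small ticks for the alternatives. ITGB8-AS1 lies farthest left at -1.93, and ITGB4 is the single row to the right of 0, at 0.17, with ticks from -0.040 to 0.49.

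**Figure D2:**
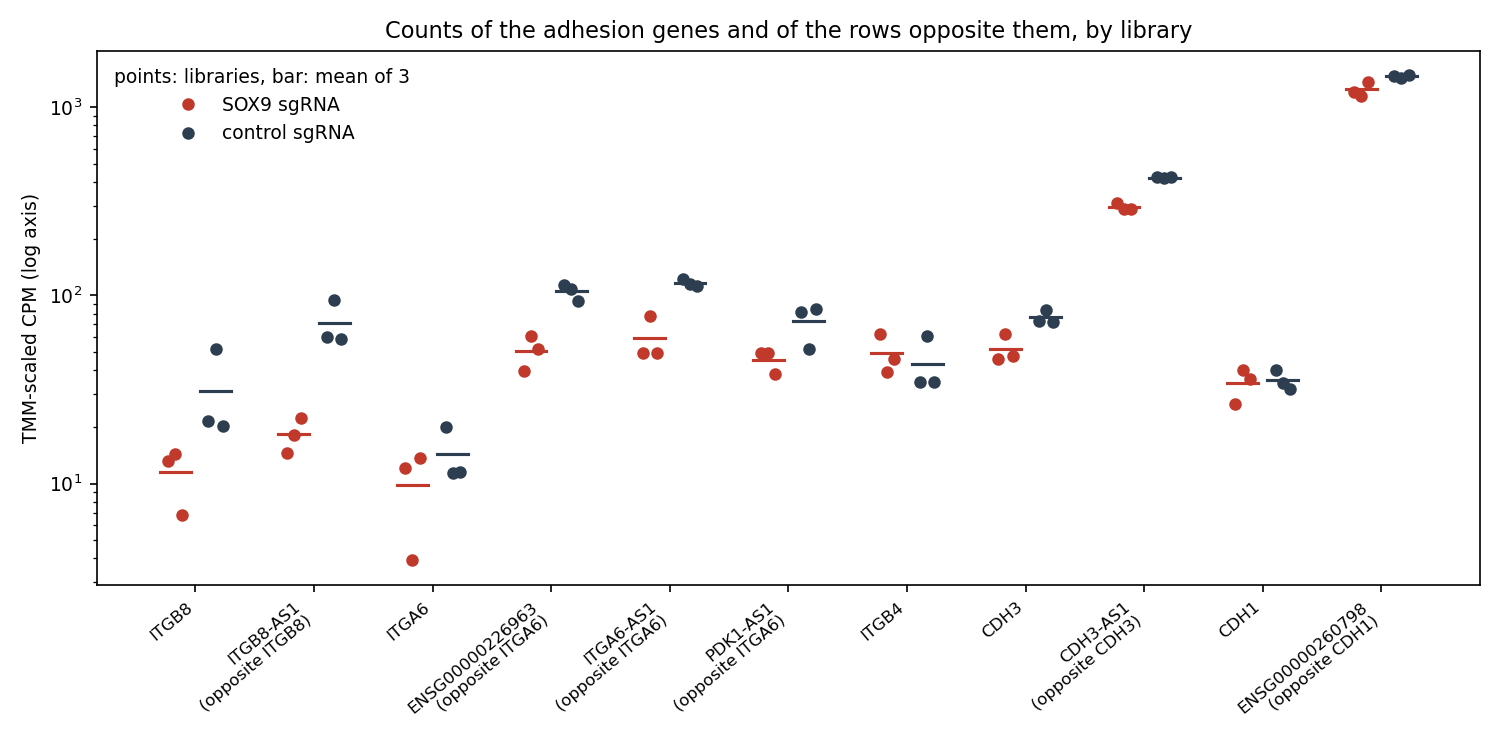
CPM (log axis) of each tested row in every library, 1 point per library, SOX9 sgRNA left of control sgRNA, with a bar at each group's mean of 3. The groups are apart for ITGB8-AS1, with SOX9 sgRNA libraries at 14.5 to 22.4 CPM and control sgRNA libraries at 58.9 to 94.0 CPM, and overlap for ITGA6, ITGB4 and CDH1.

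ITGA6 encodes the alpha6 subunit of the laminin receptors and marks basal and progenitor cells of the breast. Its row (ENSG00000091409, chr2:173292082-173371181, plus strand, GRCh37) had 10, 3 and 14 counts with the SOX9 sgRNA and 15, 9 and 8 with the control sgRNA. The groups overlapped, at a log2 fold change of -0.50 with an SE of 0.57 (edgeR adjusted p = 0.69). Rows on the minus strand within ITGA6 held several times more counts.

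ENSG00000226963 (chr2:173292502-173293331) overlaps the first coding exon of ITGA6 by 174 bases, which hold the start-codon segment shown above. It had 33, 47 and 53 counts in the SOX9 sgRNA libraries, against 85, 85 and 65 in the control sgRNA libraries. Every SOX9 sgRNA library was below every control library. CPM, the count scaled for library size with TMM factors, averaged 50.8 ± 10.7 with the SOX9 sgRNA and 105 ± 10.3 with the control (SD, n = 3 each). This gave a log2 fold change of -1.05, with an SE of 0.23 (edgeR adjusted p = 0.00055).

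ITGA6-AS1 (ENSG00000232788, chr2:173328990-173330750) lies opposite the second coding exon, over 125 bases. It had 41, 60 and 51 counts with the SOX9 sgRNA and 91, 90 and 78 with the control sgRNA, without overlap. Its mean was 59.0 ± 16.4 CPM in SOX9 sgRNA libraries and 116 ± 4.89 CPM in control libraries (SD, n = 3 each), or -0.99 as a log2 fold change with an SE of 0.22 (edgeR adjusted p = 0.00064). The 2 antisense rows thus stood at 0.483 and 0.504 of their control levels.

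The other antisense row, PDK1-AS1 (ENSG00000225205, chr2:173345568-173421324), shares 52 bases with the last ITGA6 exon and 445 bases with PDK1, the gene of a mitochondrial kinase that inhibits pyruvate dehydrogenase. It had 41, 38 and 39 counts with the SOX9 sgRNA, against 61, 41 and 59 with the control, and a log2 fold change of -0.68 with an SE of 0.26 (edgeR adjusted p = 0.095). After scaling for library size the groups did not overlap, but the row did not pass the threshold. Without control sgRNA replicate 2 it did, at -0.89 (edgeR adjusted p = 0.032). Its larger overlap is with PDK1, so it cannot be assigned to ITGA6 alone.

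ITGB4 encodes the beta4 subunit, the partner of alpha6 in hemidesmosomes. Its row (ENSG00000132470, chr17:73717408-73753899, plus strand) has no exon opposite it. It had 52, 30 and 47 counts with the SOX9 sgRNA and 26, 48 and 24 with the control sgRNA. The groups overlapped at 49.1 ± 12.2 CPM with the SOX9 sgRNA and 43.4 ± 15.2 CPM with the control (SD, n = 3 each). The difference was 0.17 on the log2 scale with an SE of 0.29 (edgeR adjusted p = 0.82), and its sign turned without SOX9 sgRNA replicate 1, at -0.040.

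ITGA3, ITGA2 and ITGB1, which encode the alpha3, alpha2 and beta1 subunits, were too low to be tested. ITGA3 (ENSG00000005884, chr17:48133332-48167845, plus strand) had 1, 4 and 4 counts with the SOX9 sgRNA, against 0, 1 and 3 with the control. ITGA2 (ENSG00000164171, chr5:52285156-52390609, plus strand) had 8, 4 and 4 counts with the SOX9 sgRNA, against 3, 0 and 3 with the control. Neither has an exon on the other strand.

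ITGB1 (ENSG00000150093, chr10:33189247-33294720, minus strand) had 9, 3 and 9 counts with the SOX9 sgRNA and 3, 6 and 4 with the control. ITGB1-DT (ENSG00000229656, chr10:33247773-33371030), which overlaps ITGB1 exons by 42 bases on the plus strand, had 0, 0 and 5 counts with the SOX9 sgRNA and 0 in each control library. A count of 0 allows up to 2.94 to 3.87 raw CPM, depending on the library (3 counts over the total; counting error only). With no filter on low counts, edgeR adjusted p-values of these 4 rows were 0.68 to 0.86, so a difference was not detectable at this depth.

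ITGB8 encodes the beta8 subunit, which pairs with alphaV, and its locus held the largest differences. The ITGB8 row (ENSG00000105855, chr7:20370325-20455377, plus strand) had 11, 11 and 7 counts with the SOX9 sgRNA, against 16, 41 and 14 with the control sgRNA. The groups did not overlap, but control replicate 2 stood well above the other two control libraries. Means were 11.5 ± 4.05 CPM with the SOX9 sgRNA and 31.2 ± 18.1 CPM with the control (SD, n = 3 each), or -1.48 on the log2 scale with an SE of 0.43 (edgeR adjusted p = 0.018). The call did not hold without control replicate 2 (-0.89, adjusted p = 0.40), without SOX9 sgRNA replicate 3 (-1.19, adjusted p = 0.14) or by DESeq2 (-1.47, adjusted p = 0.085).

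ITGB8-AS1 (ENSG00000271133, chr7:20367922-20371370, minus strand) runs across the start of ITGB8 and shares 98 bases with its first exon, all of it 5′ untranslated in GENCODE release 29. It had 12, 14 and 23 counts in the SOX9 sgRNA libraries, against 45, 74 and 41 in the control sgRNA libraries. The highest SOX9 sgRNA library was below the lowest control library, 22.4 CPM against 58.9 CPM. Means were 18.3 ± 3.97 CPM with the SOX9 sgRNA and 71.0 ± 19.9 CPM with the control (SD, n = 3 each). Its log2 fold change of -1.93 with an SE of 0.31 (edgeR adjusted p = 2.79e-06) was past the threshold in each of the 11 alternatives, at -2.12 to -1.69.

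RefSeq windows of 300 bases around the gene start (GRCh38.p14), which need not be the start of the counted row, were found for 4 of the 9 genes (ITGA6, ITGA2, ITGB8 and ITGB1), 6 windows in all. Searched on both strands, the SOX core motifs AACAAT and ACAAAG, which share the letters ACAA, occurred in 0 of these 6, against 10.1% and 16.1% of all windows. That says only that these letters are not in these windows.

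CDH3 encodes P-cadherin. Its row (ENSG00000062038, chr16:68670092-68756519, plus strand) had 38, 48 and 49 counts with the SOX9 sgRNA, against 55, 66 and 50 with the control sgRNA. Means were 52.0 ± 9.09 CPM in SOX9 sgRNA libraries and 76.4 ± 6.48 CPM in control libraries (SD, n = 3 each). The groups did not overlap, but the log2 fold change of -0.56 with an SE of 0.24 (edgeR adjusted p = 0.15) did not pass the threshold.

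CDH3-AS1 (ENSG00000260577, chr16:68679283-68680071) shares 150 bases with coding exons of CDH3 on the other strand, 105 of them in the segment shown above. It had 258, 221 and 295 counts in the SOX9 sgRNA libraries and 320, 329 and 294 in the control sgRNA libraries. Scaled for library size, that was 311, 287 and 287 CPM with the SOX9 sgRNA, against 427, 418 and 423 CPM with the control. The control libraries lay close together, and each SOX9 sgRNA library was well below them. On the log2 scale CDH3-AS1 was at -0.52 with an SE of 0.11 (edgeR adjusted p = 0.00039), a size near that of the CDH3 row but with several times as many counts behind it.

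CDH1 encodes E-cadherin, the main adhesion molecule of epithelial sheets. Its row (ENSG00000039068, chr16:68771128-68869451, plus strand) had 22, 31 and 37 counts with the SOX9 sgRNA and 30, 27 and 22 with the control sgRNA. At 34.3 ± 7.06 CPM with the SOX9 sgRNA and 35.3 ± 4.30 CPM with the control (SD, n = 3 each), the groups overlapped. Its log2 fold change was -0.046 with an SE of 0.32 (edgeR adjusted p = 0.96), and 0.14 with scaling by library totals.

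ENSG00000260798 (chr16:68848233-68857429), which shares 347 bases with CDH1 exons on the other strand, held the most counts of the 15 rows. It had 1005, 885 and 1405 counts with the SOX9 sgRNA, against 1090, 1129 and 1030 with the control, or 1210.4, 1150.2 and 1368 CPM with the SOX9 sgRNA against 1455, 1434 and 1481 CPM with the control. It was called at -0.23 on the log2 scale with an SE of 0.074 (edgeR adjusted p = 0.039). That call was narrow: it was lost in 10 of the 11 alternatives, and with scaling by library totals the value was -0.043 (adjusted p = 0.77). It was lost without SOX9 sgRNA replicate 1 or 2 and without any one control library.

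Scaling matters for a change of this size. When libraries were scaled by their totals and not by TMM, the median over all tested genes shifted by 0.18 on the log2 scale, to 0.19, and CDH3-AS1 stood at -0.34. ITGB8-AS1, ENSG00000226963, ITGA6-AS1 and CDH3-AS1 were lower and past the threshold in all 11 alternatives.

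A reading that needs no library scaling was added after the data had been seen: counts per 1000 counts of ENSG00000260798 in the same library. ITGB8-AS1 had 11.9, 15.8 and 16.4 with the SOX9 sgRNA, against 41.3, 65.5 and 39.8 with the control sgRNA, a ratio of means of 0.301. CDH3-AS1, the other cadherin antisense row, had 257, 250 and 210 with the SOX9 sgRNA, against 294, 291 and 285 with the control, a ratio of 0.823. ITGB8, ENSG00000226963 and ITGA6-AS1 were also lower without overlap, with ratios of 0.439, 0.572 and 0.606.

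These 5 rows reached p = 0.10 each (exact permutation test, two-sided), the smallest value that 3 libraries against 3 allow, and 0.18 after Benjamini-Hochberg adjustment over 9 rows. PDK1-AS1, CDH3, ITGB4 and CDH1 overlapped between the groups, with ratios of 0.745, 0.806, 1.33 and 1.14. The share of all tested genes without overlap on this ratio was not computed, so these counts of rows have no background. Ratios within a library show unequal change at most. They do not show that the row opposite CDH1 was constant, and that row was itself called lower above.

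**Figure D3:**
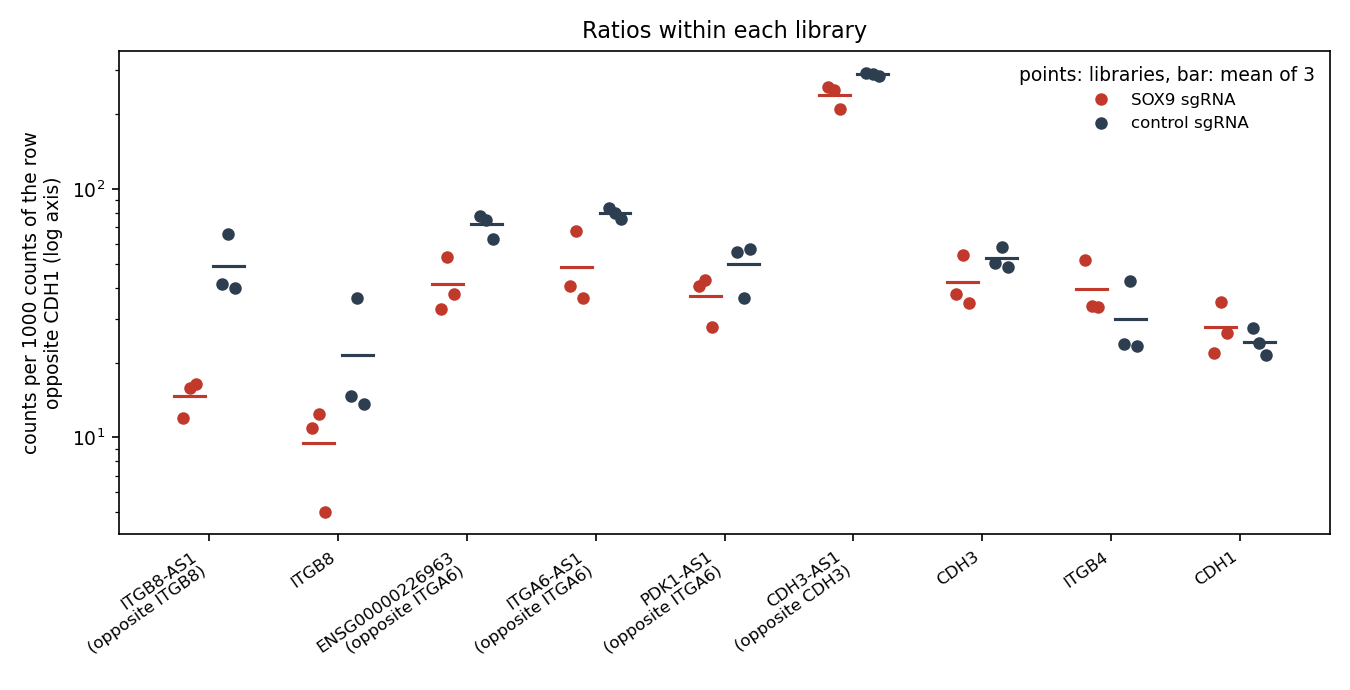
Counts of each row per 1000 counts of ENSG00000260798 in the same library, 1 point per library on a log axis with a bar at each group's mean, SOX9 sgRNA left of control sgRNA. ITGB8-AS1 lies at 11.9 to 16.4 with the SOX9 sgRNA and at 39.8 to 65.5 with the control.

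Per kilobase of exon, the opposite rows of ITGA6, ITGB8, CDH3 and CDH1 stood far above the adhesion gene rows in both groups, and ITGB1-DT did not stand above ITGB1 in this way, at 1.37 with the SOX9 sgRNA and 0 with the control. On the scale of raw CPM per kilobase, CDH1 had a level of 5.57 with the SOX9 sgRNA and 5.12 with the control, while ENSG00000260798 opposite it had 2213 and 2313. That is 397 times the CDH1 level with the SOX9 sgRNA and 452 times with the control, and 96.6% to 97.9% of the pair's counts. CDH3-AS1 had 537 with the SOX9 sgRNA and 686 with the control, 51.8 and 50.4 times the CDH3 level.

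ITGB8-AS1 had 20.5 raw CPM per kilobase with the SOX9 sgRNA and 70.7 with the control, 27.2 and 38.5 times the ITGB8 level. It took 52.2% to 76.7% of the counts of that pair. Opposite ITGA6, ENSG00000226963 stood at 91.0 with the SOX9 sgRNA and 168 with the control, against 1.47 and 1.91 for ITGA6 in the same groups. Among rows with no exon opposite, ITGB4 had 7.27 raw CPM per kilobase with the SOX9 sgRNA and 5.73 with the control, and ITGA3 and ITGA2 were below 1 in both. ITGB1 was likewise low, at 1.28 with the SOX9 sgRNA and 0.844 with the control. In the control libraries the adhesion genes' own rows thus ran from CDH3 (13.6) through ITGB4 (5.73) and CDH1 (5.12) to ITGA6 (1.91), ITGB8 (1.84), ITGB1 (0.844), ITGA2 (0.313) and ITGA3 (0.170), as means of raw CPM per kilobase. Over the control libraries the neighbours ITGB4 and CDH1, ITGA6 and ITGB8, and ITGA2 and ITGA3 overlapped in that order, and the other neighbours did not.

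**Figure D4:**
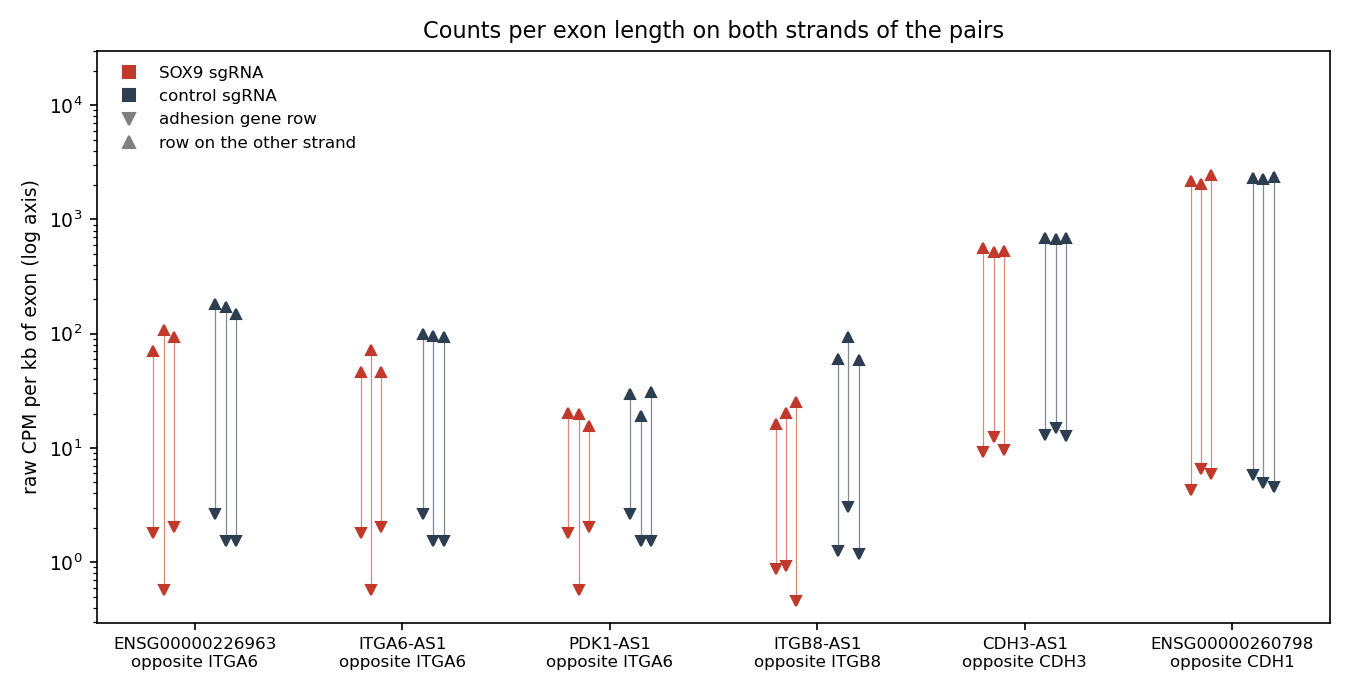
Raw CPM per kilobase of exon, on a log axis, for each adhesion gene row and the rows opposite it, with 1 triangle per library, a line joining the rows of 1 library, and SOX9 sgRNA left of control sgRNA. ENSG00000260798 averages 2213 with the SOX9 sgRNA and 2313 with the control, against 5.57 and 5.12 for CDH1.

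The pattern of ITGB8-AS1 over the 6 libraries was most like that of 3 other rows among 2456 rows of average log2 CPM of at least 6. Likeness is the root mean square difference of log2 CPM after centring each row on its mean, with a median of 0.928 over these rows. ENSG00000259279, opposite the thrombospondin gene THBS1, differed by 0.242. VIM, the gene of the intermediate filament protein vimentin, differed by 0.266. ENSG00000254208, opposite E2F5, differed by 0.297. Their log2 fold changes were -1.83, -1.61 and -1.50. All 6 libraries enter the fit and the likeness alike, so this is a description.

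Around these genes, 11 lists of integrin partners, ligands and junction proteins with 140 genes were read in the same fit. Of the genes' own rows 58 were tested, of which 1 was higher and 0 lower. At an unadjusted p below 0.05, 3 were higher and 6 lower, and DESeq2 called 0. The median log2 fold change of these 58 rows was -1.2e-05. Over all 7959 tested genes, 730 were higher and 902 lower at an unadjusted p below 0.05. DESeq2 called 130 of all genes higher and 343 lower. The unadjusted and DESeq2 counts of the lists and opposite rows below are to be read beside these. Of the rows opposite list genes 36 were tested, of which 9 were lower and 1 higher, with a median of -0.10, beside a background of 7.86% called lower among all tested genes with an exon opposite. At an unadjusted p below 0.05, 13 of them were lower and 6 higher, and DESeq2 called 7 lower and 1 higher.

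**Figure D5:**
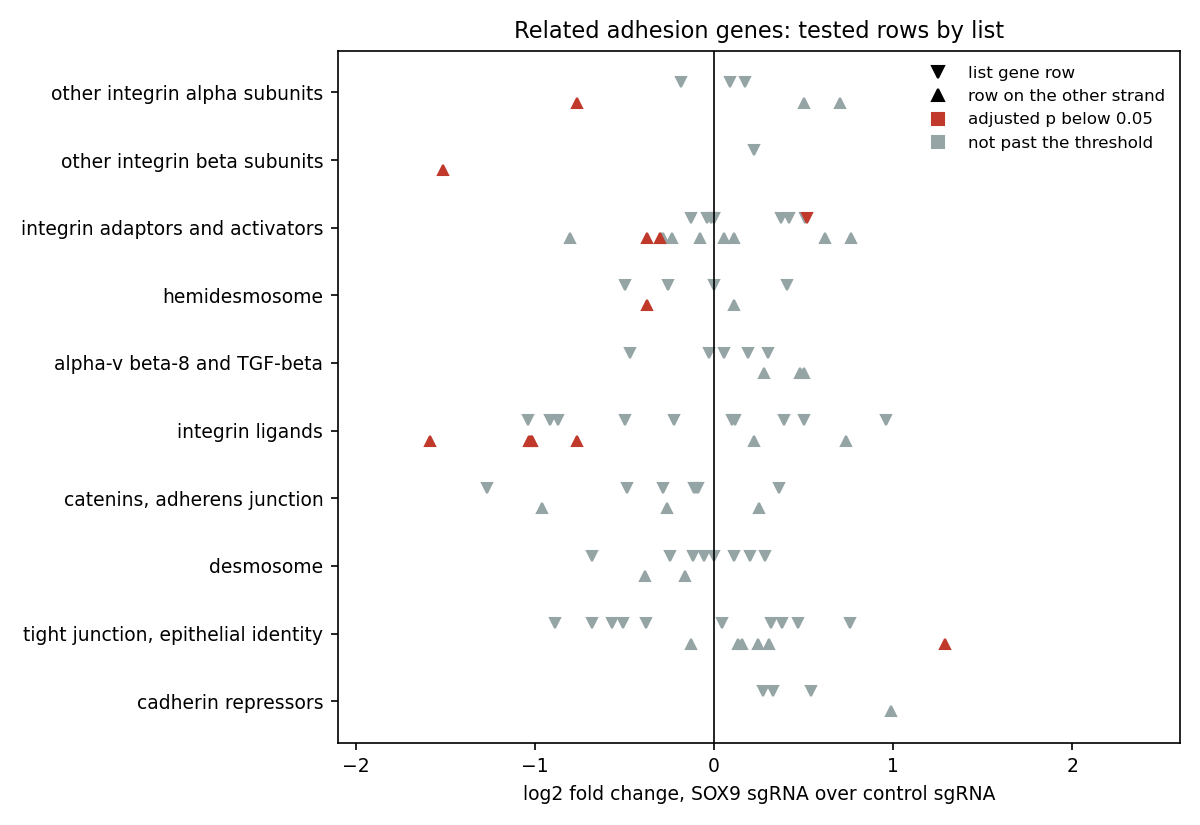
Log2 fold change (SOX9 sgRNA over control sgRNA) of the tested rows of each list, with list genes' own rows and the rows opposite them as different markers and rows past the threshold in red. Of the 7 opposite rows of the integrin ligand list, 5 are red, all left of 0, and the list's opposite rows have a median of -1.02.

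Other integrin and integrin-like genes gave few testable rows, 3 of 15 on the alpha list and 1 of 6 on the beta list. Of these rows 0 were called by edgeR or DESeq2, or at an unadjusted p below 0.05. Opposite them, ITGA9-AS1 shares 535 bases with ITGA9, which encodes the alpha9 subunit. It had 173, 137 and 201 counts with the SOX9 sgRNA, against 218, 278 and 240 with the control, and fell by 0.76 on the log2 scale (SE 0.13; edgeR adjusted p = 5.12e-06). ITGB2-AS1, opposite the leukocyte integrin gene ITGB2, had 8, 7 and 22 counts with the SOX9 sgRNA and 44, 14 and 30 with the control. It was called at -1.51 (edgeR adjusted p = 0.0063), but the groups overlapped and the call was lost without control replicate 1 (-1.13, adjusted p = 0.17).

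Of the integrin adaptors, activators and tetraspanins, 9 rows of 23 genes were tested and 1 was higher. TSPAN4, a tetraspanin, averaged 156 ± 6.39 CPM with the SOX9 sgRNA and 109 ± 28.6 CPM with the control (SD, n = 3 each), a log2 fold change of 0.52 (edgeR adjusted p = 0.049). It passed the threshold in 3 of the 11 alternatives only. Opposite this list 11 rows were tested and 2 were lower. POLR2L, an RNA polymerase subunit gene opposite the tetraspanin gene CD151, was at -0.38 (edgeR adjusted p = 0.0016), and the call was lost with library totals. TAF10, opposite the integrin-linked kinase gene ILK, was at -0.30 (edgeR adjusted p = 0.020), and the call was lost in 5 alternatives.

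Integrin ligands had 10 tested rows among 15 genes, with 0 called by edgeR or DESeq2, and 1 higher and 2 lower at an unadjusted p below 0.05. TNC, the gene of tenascin C, averaged 29.2 ± 9.30 CPM with the SOX9 sgRNA and 53.4 ± 4.69 CPM with the control (SD, n = 3 each; log2 fold change -0.87, edgeR adjusted p = 0.056). FN1, the fibronectin gene, averaged 38.4 ± 2.99 CPM with the SOX9 sgRNA and 19.5 ± 5.68 CPM with the control (0.96, adjusted p = 0.071). Neither passed the threshold here. FN1 did with library totals (1.15, adjusted p = 0.021) and with the stricter low-count filter (1.00, adjusted p = 0.047), and TNC did without SOX9 sgRNA replicate 2 (-1.12, adjusted p = 0.034).

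Opposite the ligand genes 7 rows were tested and 5 were lower, at a median of -1.02, and DESeq2 called 4 lower. The other 2, ADRM1 and LAMA5-AS1, were at 0.73 (edgeR adjusted p = 0.053) and 0.23 and did not pass. DLD, opposite the laminin gene LAMB1 over 70 bases, had 145, 147 and 202 counts with the SOX9 sgRNA, against 310, 301 and 238 with the control (log2 fold change -1.02; edgeR adjusted p = 1.33e-09). DLD is itself a protein-coding gene, of dihydrolipoamide dehydrogenase, so its row need not concern laminin. COL4A2-AS2 and COL4A2-AS1, opposite a collagen IV gene, were at -1.02 (adjusted p = 5.63e-05) and -1.03 (adjusted p = 0.0030). The last 2 were SARM1, opposite VTN, at -0.76 (adjusted p = 0.017), and ENSG00000273055, opposite LAMB1, at -1.59 (adjusted p = 0.044), which lost its call in each of the 10 alternatives that could be run. SARM1 lost its call in 3 alternatives.

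Junction genes showed no called row of their own. Catenins and adherens junction proteins gave 7 tested rows, desmosome proteins 8 and tight junction or epithelial identity genes 10. None was called by edgeR or DESeq2, while 1, 1 and 2 of them were lower at an unadjusted p below 0.05. The lowest adjusted p in each of these lists belonged to PLEKHA7, an adherens junction protein gene (-1.27, adjusted p = 0.17), DSC2, desmocollin 2 (-0.68, adjusted p = 0.19), and EPCAM, an epithelial adhesion molecule (-0.68, adjusted p = 0.10). Opposite OVOL1, a transcription factor gene of epithelial differentiation, ENSG00000255404 rose to 76.8 ± 12.1 CPM with the SOX9 sgRNA, against 31.8 ± 10.1 CPM with the control (SD, n = 3 each; log2 fold change 1.29, edgeR adjusted p = 0.00051).

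The hemidesmosome list gave 4 tested rows, with 0 called by edgeR or DESeq2 and 1 higher at an unadjusted p below 0.05. KRT5, the basal keratin gene, was nearest to the threshold at 0.41 (adjusted p = 0.17). The list of alphaV, TGF-beta and latent TGF-beta binding genes gave 5 tested rows, and the alphaV gene ITGAV was not among them. ENSG00000227227, opposite ITGAV, was tested and did not pass, at 0.50 (edgeR adjusted p = 0.11). Of the 5 list gene rows 0 were called by either tool or at an unadjusted p below 0.05. LTBP3 was nearest at -0.47 (edgeR adjusted p = 0.52). Genes that repress cadherins gave 3 tested rows, SNAI1, SNAI3 and TCF3, with 0 called by either tool or at an unadjusted p below 0.05. The ZEB genes of this list were too low to be tested. None of the 10 other cadherin genes listed had enough counts to be tested.

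Epithelial marker counts were present in all libraries, but 1 of the 10 genes was at 0 in each library and KRT8 held the most counts. The markers' own rows summed to 962 to 1147 raw CPM with the SOX9 sgRNA and 998 to 1058 with the control. The rows opposite them summed to 1197 to 1221 raw CPM with the SOX9 sgRNA and 1760 to 1886 with the control, and KRT7-AS among them fell by 0.94 on the log2 scale (edgeR adjusted p = 3.7e-17). Of 10 markers 6 were tested and 2 were lower, KRT19 at -0.74 and KRT7 at -0.97. KRT5, KRT18, KRT8 and EPCAM did not pass, at 0.41, 0.33, 0.11 and -0.68. The summed level of mesenchymal markers differed between the groups, through the VIM locus. Their own rows summed to 113 to 128 raw CPM with the SOX9 sgRNA and 204 to 233 with the control. The rows opposite them, which all lie opposite VIM, summed to 3986 to 4111 with the SOX9 sgRNA and 9703 to 9953 with the control. Of 9 such genes 2 were tested. VIM fell by 1.61 on the log2 scale, to 72.9 CPM with the SOX9 sgRNA against 225 with the control, and both rows opposite VIM were lower. The sums thus describe 1 gene and not the marker list. FN1 was at 0.96 in the other direction without passing, as given above. Fewer cells of a type and less RNA per cell cannot be told apart in bulk samples, and the part of these markers in the adhesion gene results was not tested. Leukocyte markers summed to 35.3 to 43.8 raw CPM with the SOX9 sgRNA and 13.6 to 28.3 with the control, with 2 of 6 at 0 in every library. Most of these sums came from 1 gene, CD68, the only 1 of the 6 that was tested. CD68 had 31, 32 and 36 counts with the SOX9 sgRNA and 18, 11 and 21 with the control. It was not called, at a log2 fold change of 0.74 (edgeR adjusted p = 0.19). Endothelial markers summed to at most 1.29 raw CPM with the SOX9 sgRNA and 2.57 with the control, with 2 of 4 at 0.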

How the data were processed

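The deposited values are whole-number counts of fragments per gene that the authors made, 1 table per library, without normalization. The submitters' processing notes name STAR 2.7.10a, featureCounts from Subread 1.6.2 and the build GRCh37 (hg19). According to the file headers, pairs were counted over exons of Ensembl GRCh37 release 75 under strand setting 1, and a fragment could count for several overlapping genes. Total RNA went into a stranded low-input SMARTer kit, per the labels' protocols. How multi-mapped reads were handled is not stated there.

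Exon overlap came from bedtools 2.31.1. Symbols were found for 51452 identifiers. edgeR 4.0.16 (R 4.3.3) tested the counts with filterByExpr, TMM factors and a robust quasi-likelihood fit without replicate block, adjusted by Benjamini-Hochberg over 7959 genes at a threshold of 0.05. CPM is over tested genes with TMM factors, and raw CPM is over all genes. SE is the log2 fold change over the square root of its F statistic. Alternatives were library totals, other low-count filters, the block, DESeq2 1.42.0 and leaving out each library.

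The genes and lists were chosen with earlier results of these data known. Named are all chosen genes and rows opposite them, and from each list up to 3 tested genes of smallest adjusted p and rows opposite list genes. Tested epithelial, mesenchymal and leukocyte markers are named beside their counts, and ADRM1 and LAMA5-AS1 as the other opposite rows of a ligand gene. Libraries of 1 group differed by 1.97 to 2.44 chi-square per degree of freedom and those of different groups by 4.41 to 5.57, so none was a copy. On simulated counts of 7959 genes for this comparison, the fit found 14%, 44%, 82% and 86% of 50 genes each changed by 1.5, 2, 3 and 4-fold (log2 CPM above 4), and called 3 of 7237 unchanged genes.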

Additional observations from a re-analysis of the deposited data

How the results depend on the processing

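Over all genes, 238 were higher and 479 lower. With library totals these were 625 and 249. With no low-count filter 151 were higher and 423 lower, and with DESeq2 130 were higher and 343 lower. Leaving out 1 library gave 161 to 207 higher and 364 to 430 lower. The fit with a replicate block gave 175 higher and 399 lower. Same-numbered libraries did not deviate together (r = 0.006, 0.017 and -0.03 over 4337 genes), and differently numbered ones gave -0.048 to 0.042. Counting error also lowers r, so these values do not exclude that libraries of 1 number shared a culture or day. Of the 11 tested adhesion and opposite rows, 6 were called, and 4 to 5 in the alternatives. ENSG00000260798 was at -0.043 with library totals, -0.26 with no filter, -0.19 with a stricter filter (20 counts in 3 libraries), and -0.23 both with the replicate block and with DESeq2, none past the threshold, and -0.31 to -0.18 without 1 library. The block changed no other call among these rows. ITGB8 lost its call with DESeq2 (-1.47) and ranged from -1.71 to -0.89 without 1 library. PDK1-AS1 ranged from -0.89 to -0.56 without 1 library and was at -0.50 with library totals. CDH1 turned to 0.14 with library totals and ranged from -0.17 to 0.10 without 1 library, and ITGB4 from -0.040 to 0.49. ITGAE ranged from -0.13 to 0.19 without 1 library and was at 0.27 with library totals. The stricter filter left no value for ITGB8 and ITGA6. The causes were not tested. With 776125 to 1018854 counts per library, rows with a few counts per library gave no usable comparison.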
